A study of Homo sapiens with 12 samples.

Results

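A set of 36 genes was followed that lets a cell show peptides, lipids or stress ligands to lymphocytes: class I and class II HLA molecules, the machinery that supplies their peptides, butyrophilins and ligands of the receptor NKG2D. Members were chosen by gene symbol and by measured detection p-values, and the list was drawn up with earlier results of these data known. A probe counted where the platform table gave it exactly 1 of these symbols and where its detection p-value was under 0.01 on at least 3 of the 12 arrays. Of 57 probes for the 36 genes, 34 probes of 27 genes passed, against 14441 probes of 10873 genes on the array as a whole. The detection rule chose these probes, so their being detected is not a result.

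RNA came from OVCAR-3, a human ovarian carcinoma line, taken 72 hours after transfection of siRNA with Lipofectamine RNAiMAX. The groups were siOct4 (against POU5F1, the pluripotency factor OCT4), siCcnf+siNipp1 (against cyclin F and a nuclear inhibitor of protein phosphatase 1, given together), siRb1 (against the retinoblastoma protein) and control siRNA, each on 3 Illumina HT-12 bead arrays. All groups therefore share transfection and line, and no untransfected cells are among them. The labels call the samples biological replicates but do not say whether these were separate cultures. The p-values measure a spread between samples, which may be technical if they were not. Each silenced gene with a probe was lower with its own siRNA. POU5F1 was undetected with siOct4 and at least 15.9-fold lower than with control (adjusted p = 1.81e-07), although a second POU5F1 probe, at a log2 change of 0.27, did not pass (adjusted p = 0.329). CCNF fell by 1.55 on the log2 scale with siCcnf+siNipp1 (adjusted p = 0.000791), and RB1 was undetected with siRb1 and at least 2.22-fold lower (adjusted p = 0.00102). These genes also moved with other siRNAs: with siOct4 CCNF fell by 0.96 (adjusted p = 0.0133) and RB1 by 0.61 (adjusted p = 0.0435), and the first POU5F1 probe rose by 1.03 with siCcnf+siNipp1 (adjusted p = 0.00298). No probe was paired with the Nipp1 gene.

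Class I molecules hold peptides cut from proteins inside the cell. Proteasomes, some with interferon-inducible subunits and the PA28 activator, cut the peptides, the TAP transporter carries them into the endoplasmic reticulum, and ERAP enzymes trim them there. Tapasin, calreticulin, calnexin and ERp57 hold the heavy chain and B2M until a peptide is bound. CD8 T cells read the result. Class II molecules, usually made by specialised antigen-presenting cells, hold peptides from the endocytic route, with HLA-DM as the peptide editor. MR1 shows vitamin B metabolites to MAIT cells, CD1D shows lipids to NKT cells, butyrophilins of the BTN3A and BTN2A families take part in the sensing of phosphoantigens by gamma delta T cells, and MIC and ULBP proteins are stress ligands that engage NKG2D on NK cells.

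Values below are log2 intensities after background correction and quantile normalisation, each from 1 array. Probes were tested with limma over all 14441 probes, and a change passed at a Benjamini-Hochberg adjusted p under 0.05. Probes bind with different strength, so a level is compared between arrays and never between genes. In total RNA of a culture, fewer cells making a transcript and less of it per cell cannot be told apart. The HLA heavy chains and the BTN3A genes are near copies of each other. Probe sequences were not used here, so a signal may hold RNA of a related gene.

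Most presentation genes read higher than with control siRNA in all 3 knockdowns, and the number that passed the test was smaller with siRb1. The fitted change was above 0 for 31 of the 34 probes with siOct4, 29 with siCcnf+siNipp1 and 30 with siRb1. With siOct4, 25 of the 34 probes rose and 0 fell, where 15.7% of all tested probes were called higher and 16.4% lower. With siCcnf+siNipp1, 23 rose and 3 fell, where the array-wide shares were 17.4% higher and 18.6% lower. With siRb1, 6 rose and 0 fell, against 2.46% higher and 1.53% lower over the array. The list was drawn up with earlier results known, so its excess over the array is no independent support. The median log2 change of the 34 probes was 1.27 with siOct4, 1.04 with siCcnf+siNipp1 and 0.54 with siRb1, where the medians over all probes were -0.03, -0.01 and -0.01. The siRb1 count was 11 when the replicate number was fitted as a block. It was 4 without siRb1 replicate 3 and 10 without siCcnf+siNipp1 replicate 1. The siRb1 calls over all 14441 probes moved the same way. They were 576 in the fit as reported, 1315 with the block, 224 without siRb1 replicate 3 and 635 without siCcnf+siNipp1 replicate 1.

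A probe near background can pass the filter through the very group in which it is high. The first PSMB9 probe and the second TAP2 probe were detected on at least 2 arrays of siOct4. Neither was detected on more than 1 array of any other group. The second TAPBP probe passed only through siOct4 and siCcnf+siNipp1 together, the groups in which it was highest. The second TAP2 probe would have passed on the other 3 arrays as well and is kept with them out of caution. The fit holds these 3 probes and the counts over 34 include them, but their own p-values are not used and they are described by values only. Over the 31 others, 22 rose and 0 fell with siOct4, 22 rose and 3 fell with siCcnf+siNipp1, and 6 rose and 0 fell with siRb1. These 31 hold both BTN3A2 probes, which were detected only on the siOct4 and siCcnf+siNipp1 arrays. The 3 arrays of either group met the filter without the other, so their tests were kept. The groups that let them in are still those in which they read high, which limits what their calls show. For the 22 member probes detected on all 12 arrays, where the filter had no say in direction, 16 rose and 0 fell with siOct4, and 16 rose and 2 fell with siCcnf+siNipp1. Over the 11382 probes detected on all arrays, 15.8% were higher and 16.9% lower with siOct4, 17.8% higher and 19.2% lower with siCcnf+siNipp1, and 2.39% higher and 1.52% lower with siRb1. The same 22 probes held all 6 siRb1 calls, in MR1, PSME1, PSME2, ERAP2, TAP1 and MICB.

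**Figure D1:**
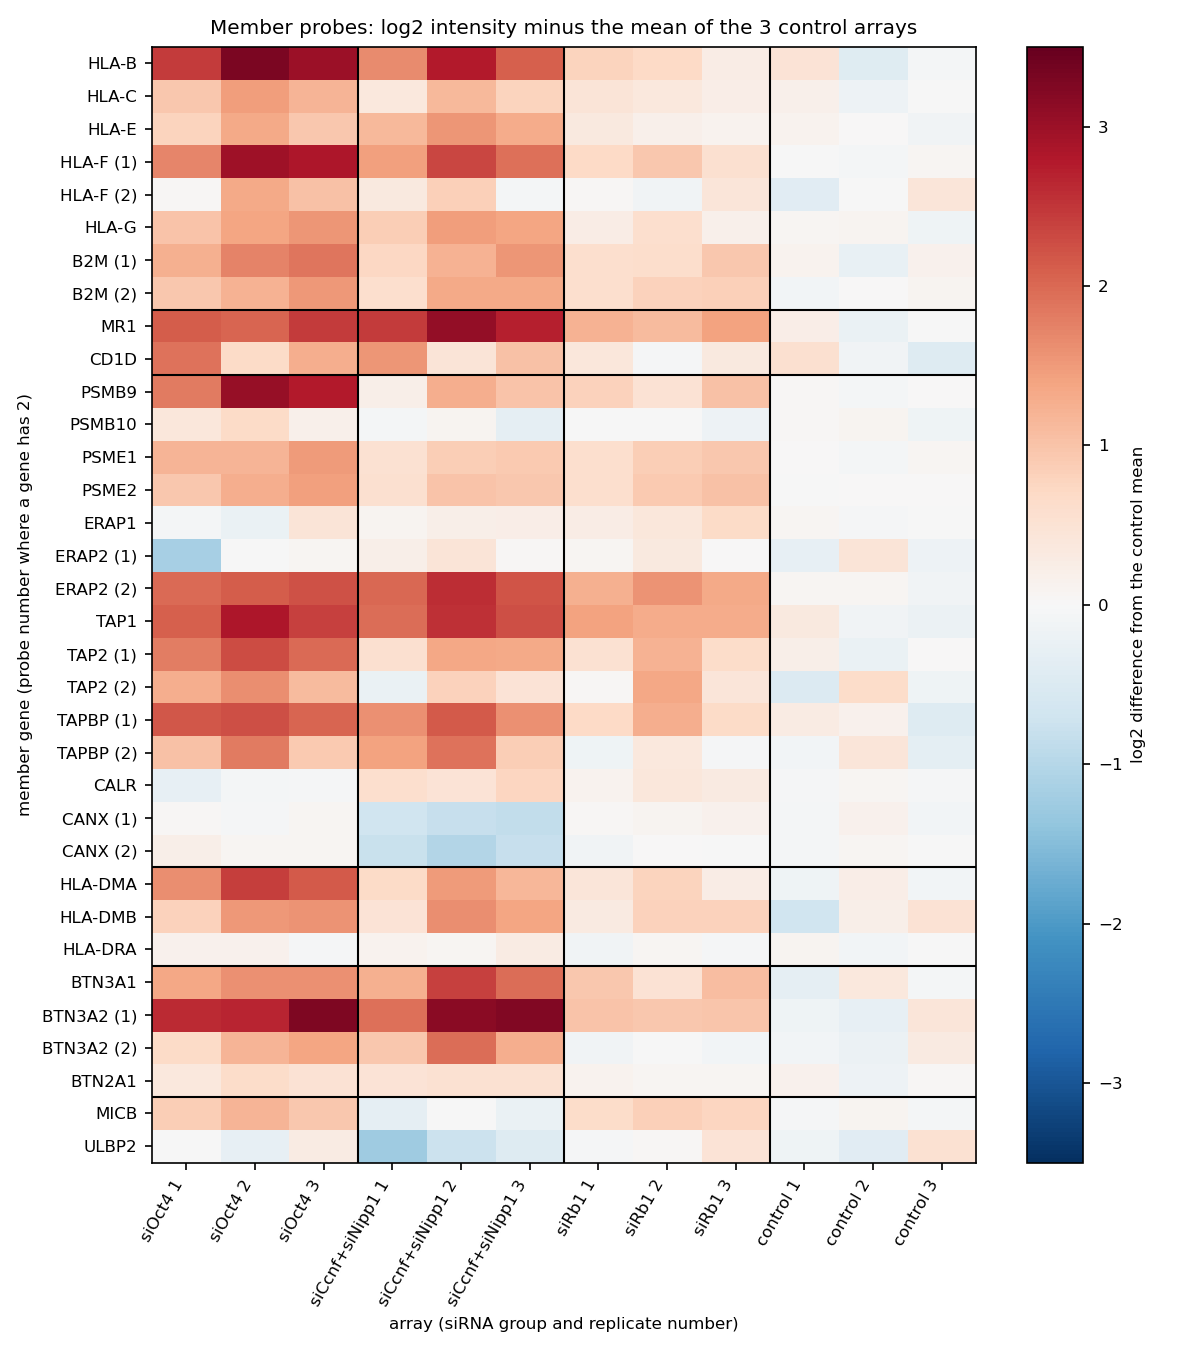
Each row is a member probe and each column an array, with the 3 siOct4, 3 siCcnf+siNipp1, 3 siRb1 and 3 control arrays from left to right. Colour is the log2 intensity minus the mean of the 3 control arrays (red higher, blue lower), and horizontal lines part the class I, class I-like, peptide supply, class II, butyrophilin and NKG2D ligand probes. HLA-B, the first HLA-F and BTN3A2 probes, MR1, TAP1 and the second ERAP2 probe are red in the siOct4 and siCcnf+siNipp1 columns, PSMB9 is red in the siOct4 columns, and both CANX rows are blue under siCcnf+siNipp1.

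Set against each other, the knockdowns differed to unlike extents. Between siOct4 and siRb1, 20 of the 34 probes were higher with siOct4 and 1 was lower (array-wide 15.4% and 16%). Between siCcnf+siNipp1 and siRb1, 13 were higher with siCcnf+siNipp1 and 4 were lower (16.6% and 17.3%). Between siOct4 and siCcnf+siNipp1, 9 were higher with siOct4 and 2 lower (16.6% each way). As shares, 26.5% were higher and 5.88% lower. The total of 11 called out of 34 was near the array-wide share of 4795 out of 14441. Without the 3 probes given by values only, the counts over 31 were 18 higher and 1 lower, 12 higher and 4 lower, and 8 higher and 2 lower for these comparisons. The F test over the 4 groups called 30 of the 34, or 27 of the 31, where it called 55.2% of all probes. The 4 not called were the second HLA-F probe, ERAP1, the first ERAP2 probe and HLA-DRA.

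**Figure D2:**
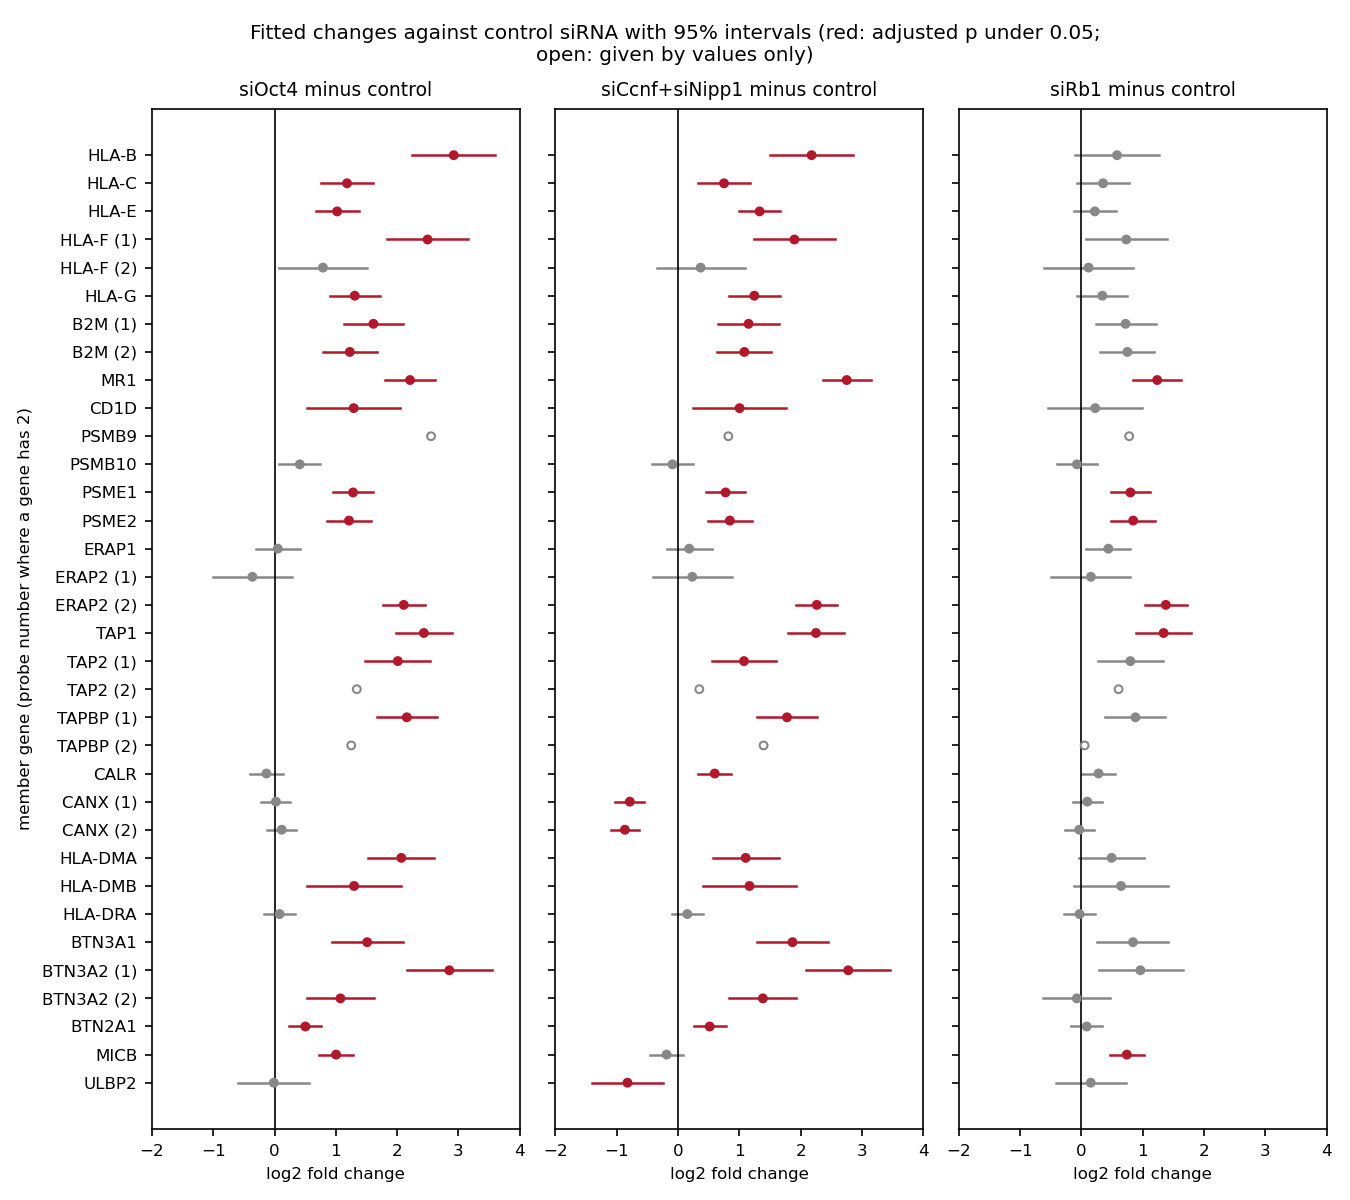
Fitted log2 fold change of each member probe for siOct4, siCcnf+siNipp1 and siRb1 minus control (points) with 95% intervals (lines), red where the adjusted p was under 0.05. Open points are PSMB9 and the second TAP2 and TAPBP probes, which are given by values only. Most red points lie between 1 and 3 with siOct4 and siCcnf+siNipp1, and with siRb1 6 points are red.

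Promoters of these genes are printed because their letters could be read directly for the sites that interferon-responsive factors are known to bind. RefSeq windows (build GRCh38.p14) run from 250 bases before to 50 bases after an annotated start; 30 members had 43 such windows, and the array signal was not measured there. Below, 7 windows are given 5′ to 3′ on the gene's own strand. Capitals mark matches, on either strand, to AANNGAAA, GAANNGAAA, TTCNNNGAA or GGGNNTTCC.
HLA-B (chr6:31357130-31357429, minus strand): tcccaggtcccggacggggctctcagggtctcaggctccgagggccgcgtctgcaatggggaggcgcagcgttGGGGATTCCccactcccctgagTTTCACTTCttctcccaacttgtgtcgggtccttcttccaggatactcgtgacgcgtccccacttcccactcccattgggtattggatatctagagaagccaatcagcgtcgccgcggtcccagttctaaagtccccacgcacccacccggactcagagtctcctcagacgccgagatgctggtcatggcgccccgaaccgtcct
B2M (chr15:44711267-44711566, plus strand): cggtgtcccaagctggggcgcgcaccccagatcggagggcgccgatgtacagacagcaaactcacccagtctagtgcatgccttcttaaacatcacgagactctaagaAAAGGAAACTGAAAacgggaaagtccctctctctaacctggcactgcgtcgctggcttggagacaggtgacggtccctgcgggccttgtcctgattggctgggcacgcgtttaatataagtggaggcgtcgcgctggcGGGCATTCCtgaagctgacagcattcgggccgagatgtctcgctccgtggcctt
TAP1 (chr6:32853655-32853954, minus strand): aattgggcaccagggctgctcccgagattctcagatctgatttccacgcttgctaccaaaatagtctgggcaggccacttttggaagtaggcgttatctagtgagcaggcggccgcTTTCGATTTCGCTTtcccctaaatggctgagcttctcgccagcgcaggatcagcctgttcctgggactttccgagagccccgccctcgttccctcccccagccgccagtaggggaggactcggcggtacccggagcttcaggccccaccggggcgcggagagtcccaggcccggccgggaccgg
TAPBP (chr6:33314029-33314328, minus strand): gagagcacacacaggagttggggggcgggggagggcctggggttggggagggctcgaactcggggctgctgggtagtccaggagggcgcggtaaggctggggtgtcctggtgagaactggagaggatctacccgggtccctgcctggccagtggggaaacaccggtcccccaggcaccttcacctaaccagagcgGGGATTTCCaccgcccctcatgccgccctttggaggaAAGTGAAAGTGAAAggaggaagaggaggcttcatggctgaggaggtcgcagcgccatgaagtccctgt
BTN3A2 (chr6:26364948-26365247, plus strand): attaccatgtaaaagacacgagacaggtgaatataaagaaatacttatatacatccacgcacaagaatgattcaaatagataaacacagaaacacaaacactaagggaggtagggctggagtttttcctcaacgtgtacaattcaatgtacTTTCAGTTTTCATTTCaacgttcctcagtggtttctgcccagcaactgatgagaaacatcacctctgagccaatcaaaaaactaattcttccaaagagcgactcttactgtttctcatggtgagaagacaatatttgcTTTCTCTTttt
MICB (chr6:31497895-31498194, plus strand): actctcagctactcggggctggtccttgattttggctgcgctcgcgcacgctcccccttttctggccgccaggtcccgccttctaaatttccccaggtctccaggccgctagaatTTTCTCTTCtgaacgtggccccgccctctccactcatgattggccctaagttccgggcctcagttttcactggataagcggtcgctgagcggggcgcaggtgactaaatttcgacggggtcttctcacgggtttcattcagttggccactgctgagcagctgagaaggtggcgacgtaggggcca
CANX (chr5:179698679-179698978, plus strand): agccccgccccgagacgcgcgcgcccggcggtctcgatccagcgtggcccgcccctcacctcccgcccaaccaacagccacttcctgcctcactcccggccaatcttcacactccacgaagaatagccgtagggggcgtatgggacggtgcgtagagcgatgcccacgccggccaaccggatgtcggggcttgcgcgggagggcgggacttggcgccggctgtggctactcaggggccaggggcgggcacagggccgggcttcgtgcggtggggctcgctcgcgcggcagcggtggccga

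The first 5 of these windows belong to genes that rose with both siOct4 and siCcnf+siNipp1, MICB rose with siOct4 and not with siCcnf+siNipp1, and CANX fell with siCcnf+siNipp1. GAANNGAAA, the core of the interferon-stimulated response element, lay in 13 of the 43 member windows (30.2%), including those of HLA-B, BTN3A2 and MICB, and in 7.66% of all 35116 windows. AANNGAAA, a looser form that every GAANNGAAA contains and that was added after the windows were read, lay in 25 (58.1%) against 22.8%. It stands in pairs in the B2M, TAP1 and TAPBP windows. The kappaB letters GGGNNTTCC lay in 7 windows (16.3% against 6.58%), with HLA-B, B2M and TAPBP among them. This pattern allows only NN between GGG and TTCC, so the letters gggactttcc in the TAP1 window, with a longer spacing, were not counted. The gamma-activated site TTCNNNGAA lay in 3 (6.98% against 7.66%), and CCAAT, the core of the Y box, in 25 (58.1% against 34.6%). The cyclic AMP element TGACGTCA lay in 0 (1.85% of all windows) and the E2F letters GGCGGGAA in 1 (2.33% against 3.16%). The printed CANX window, 1 of several for that gene, holds none of the 4 marked motifs, although AANNGAAA and GGGNNTTCC occur in other CANX windows. The first windows of TAP1 and PSMB9 overlap by 13 bases on opposite strands. A match is a run of letters and not a measured site.

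Among the class I heavy chains and B2M, 7 of 8 probes rose with siOct4, 7 of 8 rose with siCcnf+siNipp1, and 0 of 8 passed with siRb1. Over all tested probes, 15.7%, 17.4% and 2.46% were called higher in these comparisons, so 0 of 8 with siRb1 lay near the array-wide share. That count holds for the fit without a replicate block. With the block both B2M probes passed with siRb1, where 1315 of 14441 probes were called in either direction over the array. HLA-B, a classical heavy chain, read 11.26, 12.11 and 11.81 with siOct4, 10.46, 11.59 and 10.89 with siCcnf+siNipp1, 9.59, 9.51 and 9.05 with siRb1, and 9.29, 8.39 and 8.73 with control siRNA. All siOct4 and siCcnf+siNipp1 arrays lay above all siRb1 and control arrays, while the siRb1 and control values overlapped. The log2 change was 2.92 ± 0.31 (SE; adjusted p = 6.65e-05) with siOct4, a 7.58-fold rise, and 2.18 ± 0.31 (SE; adjusted p = 0.000349) with siCcnf+siNipp1, a 4.53-fold rise. With siRb1 it was 0.58 ± 0.31 (SE; adjusted p = 0.363), and the difference from siRb1 passed for siOct4 (2.34 ± 0.31 SE, adjusted p = 0.00026) and for siCcnf+siNipp1 (1.60 ± 0.31 SE, adjusted p = 0.00231).

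HLA-C, the other classical heavy chain measured, read 10.01, 10.53 and 10.26 with siOct4, 9.44, 10.22 and 9.85 with siCcnf+siNipp1, 9.54, 9.46 and 9.30 with siRb1, and 9.26, 8.91 and 9.07 with control siRNA. Its arrays with siOct4 and siCcnf+siNipp1 exceeded every control array. The log2 change was 1.18 ± 0.20 (SE; adjusted p = 0.0009) with siOct4, 0.75 ± 0.20 (SE; adjusted p = 0.0108) with siCcnf+siNipp1 and 0.35 ± 0.20 (SE; adjusted p = 0.378) with siRb1.

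HLA-E, whose product presents leader peptides of other class I chains to an inhibitory NK cell receptor, read 10.90, 11.45 and 11.08 with siOct4, 11.27, 11.66 and 11.43 with siCcnf+siNipp1, 10.47, 10.31 and 10.24 with siRb1, and 10.25, 10.13 and 9.99 with control siRNA. It was highest in the siCcnf+siNipp1 group, and the siOct4 and siCcnf+siNipp1 arrays overlapped. Its log2 change was 1.02 ± 0.16 (SE; adjusted p = 0.000593) with siOct4, 1.33 ± 0.16 (SE; adjusted p = 0.000113) with siCcnf+siNipp1 and 0.22 ± 0.16 (SE; adjusted p = 0.521) with siRb1. The difference of -0.31 ± 0.16 (SE; adjusted p = 0.156) between siOct4 and siCcnf+siNipp1 did not pass, and without siOct4 replicate 2 its adjusted p was 0.0413.

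HLA-F, a non-classical heavy chain, had 2 probes. The first read 9.86, 11.14 and 10.98 with siOct4, 9.59, 10.51 and 10.08 with siCcnf+siNipp1, 8.87, 9.09 and 8.72 with siRb1, and 8.15, 8.10 and 8.23 with control siRNA. Every siOct4 and siCcnf+siNipp1 array stood above every siRb1 array, and siRb1 above control. It rose by 2.50 ± 0.30 (SE; adjusted p = 0.000133) with siOct4 and 1.90 ± 0.30 (SE; adjusted p = 0.000642) with siCcnf+siNipp1, and with siRb1 the change was 0.73 ± 0.30 (SE; adjusted p = 0.224). The second HLA-F probe, detected on 6 arrays, differed: its group means were 7.09, 6.67, 6.41 and 6.30 with siOct4, siCcnf+siNipp1, siRb1 and control siRNA, and 0 of its comparisons passed. Without siOct4 replicate 1 the siOct4 change of this probe had an adjusted p of 0.0109, against 0.0892 with all arrays.

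HLA-G, a non-classical heavy chain best known from placental trophoblast, read 7.11, 7.49 and 7.64 with siOct4, 6.98, 7.57 and 7.50 with siCcnf+siNipp1, 6.37, 6.70 and 6.28 with siRb1, and 6.18, 6.19 and 5.95 with control siRNA. It was detected on all siOct4 and siCcnf+siNipp1 arrays, on 1 siRb1 array and on 0 control arrays, so only a bound can be given. It was at least 1.86-fold higher with siOct4 (adjusted p = 0.000394) and at least 1.78-fold higher with siCcnf+siNipp1 (adjusted p = 0.00049).

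B2M, the light chain shared by all these molecules, rose with siOct4 and siCcnf+siNipp1 at both probes. The first read 13.79, 14.29 and 14.43 with siOct4, 13.27, 13.76 and 14.09 with siCcnf+siNipp1, 13.15, 13.18 and 13.49 with siRb1, and 12.68, 12.29 and 12.70 with control siRNA. The second read 12.92, 13.18 and 13.47 with siOct4, 12.55, 13.28 and 13.30 with siCcnf+siNipp1, 12.56, 12.78 and 12.80 with siRb1, and 11.86, 11.98 and 12.05 with control siRNA. At both probes every knockdown array, siRb1 included, lay above every control array. With siOct4 the log2 changes were 1.61 ± 0.22 (SE; adjusted p = 0.000307) and 1.23 ± 0.20 (SE; adjusted p = 0.000855). With siCcnf+siNipp1 they were 1.15 ± 0.22 (SE; adjusted p = 0.00217) and 1.08 ± 0.20 (SE; adjusted p = 0.00169). With siRb1 they were 0.72 ± 0.22 (SE; adjusted p = 0.101) and 0.75 ± 0.20 (SE; adjusted p = 0.0627), which did not pass, but the fit with a replicate block gave adjusted p = 0.031 and 0.0107. Without siCcnf+siNipp1 replicate 1, which sets part of the common spread, the second probe also passed (adjusted p = 0.0167). Of the 22 alternative fits described at the end, the siRb1 change passed in 4 for the first probe and 7 for the second. Its siOct4 level exceeded its siRb1 level by 0.48 ± 0.20 (SE; adjusted p = 0.0905), which the block brought to an adjusted p of 0.0167 and the fit without siCcnf+siNipp1 replicate 1 to 0.028.

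The class I-like MR1 rose in all 3 knockdowns. It read 9.27, 9.20 and 9.61 with siOct4, 9.61, 10.23 and 9.87 with siCcnf+siNipp1, 8.36, 8.25 and 8.55 with siRb1, and 7.39, 6.92 and 7.14 with control siRNA. The groups did not overlap, although the highest siOct4 value and the lowest siCcnf+siNipp1 value met at 9.61. MR1 rose by 2.21 ± 0.18 (SE; adjusted p = 1.52e-05) with siOct4, 2.75 ± 0.18 (SE; adjusted p = 4.31e-06) with siCcnf+siNipp1 and 1.24 ± 0.18 (SE; adjusted p = 0.00387) with siRb1. The siOct4 level was lower than the siCcnf+siNipp1 level by a log2 difference of -0.54 ± 0.18 (SE; adjusted p = 0.0374). That call was lost without siOct4 replicate 1, siOct4 replicate 2, siCcnf+siNipp1 replicate 2, siCcnf+siNipp1 replicate 3 or control replicate 3 (adjusted p = 0.0948, 0.117, 0.145, 0.0758 and 0.0505). It was also lost with median scaling, without the detection filter and with only the 2 groups compared (adjusted p = 0.0722, 0.0662 and 0.0757).

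CD1D read 9.25, 8.02 and 8.62 with siOct4, 8.88, 7.78 and 8.37 with siCcnf+siNipp1, 7.73, 7.29 and 7.67 with siRb1, and 7.91, 7.21 and 6.89 with control siRNA. Replicate 1 was the highest of its group in all 4 groups, and control replicate 1 lay above siCcnf+siNipp1 replicate 2. The log2 change was 1.29 ± 0.35 (SE; adjusted p = 0.0143) with siOct4 and 1.00 ± 0.35 (SE; adjusted p = 0.0408) with siCcnf+siNipp1, and 0.23 ± 0.35 (SE; adjusted p = 0.806) with siRb1. Both calls were fragile: the siOct4 call had adjusted p = 0.0523 without siOct4 replicate 1 and 0.0618 without control replicate 3. The siCcnf+siNipp1 call had adjusted p = 0.0521 without siOct4 replicate 3, 0.141 and 0.0935 without siCcnf+siNipp1 replicate 1 or 3, 0.0504 and 0.052 without siRb1 replicate 1 or 3, and 0.104 and 0.146 without control replicate 2 or 3. Without the detection filter its adjusted p was 0.0695. With the replicate block, CD1D was also higher with siCcnf+siNipp1 than with siRb1 (log2 difference 0.78, adjusted p = 0.0117, against 0.106 without the block).

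**Figure D3:**
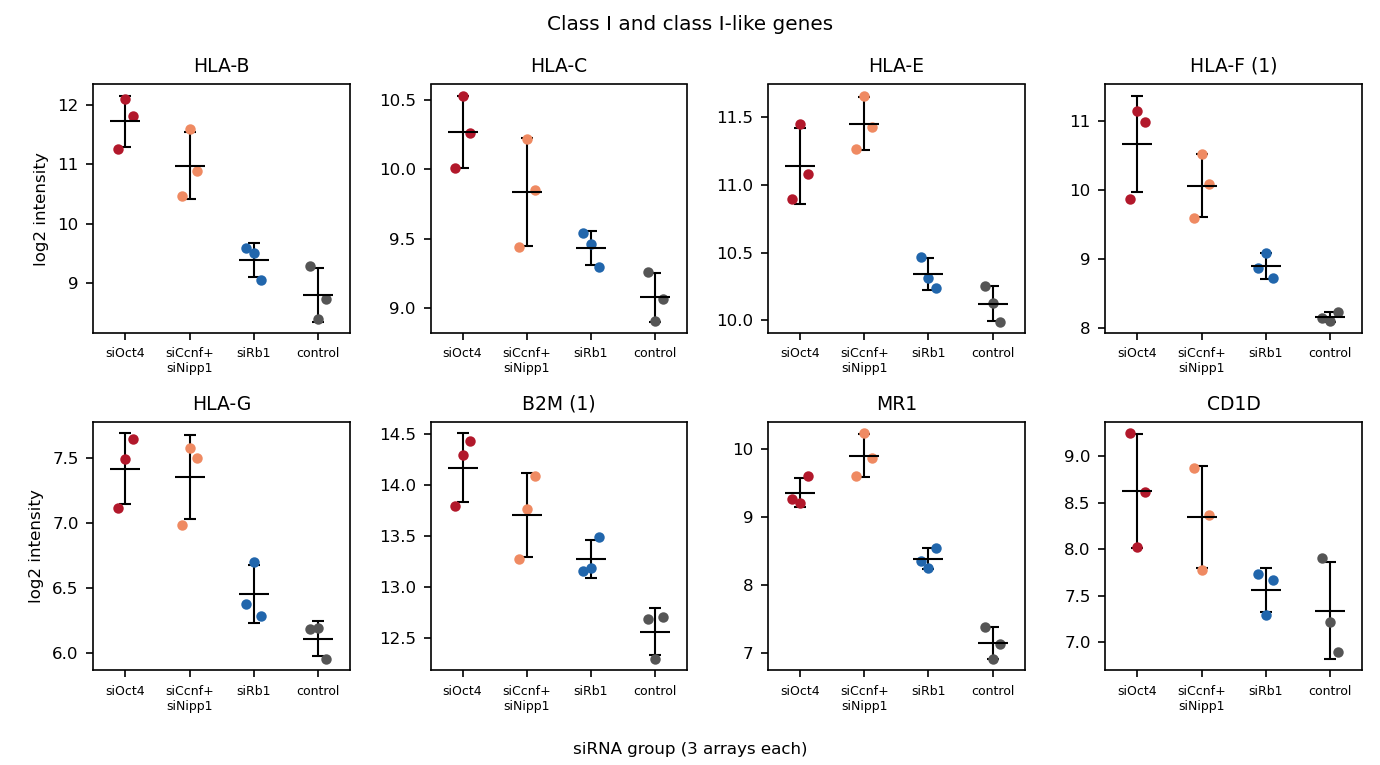
Log2 intensity on each array (points) with group mean and SD (bars) for 8 class I and class I-like probes; the vertical axes differ between panels and do not start at 0. HLA-B, HLA-F and MR1 lie highest with siOct4 and siCcnf+siNipp1, and for MR1 the 3 siRb1 arrays (8.25 to 8.55) lie above the 3 control arrays (6.92 to 7.39).

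Of the 15 probes for peptide supply and loading, 9 rose with siOct4, 8 rose and 2 fell with siCcnf+siNipp1, and 4 rose with siRb1. Without the 3 probes described by values only, 6 of 12 rose with siOct4, 7 rose and 2 fell with siCcnf+siNipp1, and 4 rose with siRb1. The array-wide shares were 15.7% higher with siOct4, 17.4% higher and 18.6% lower with siCcnf+siNipp1, and 2.46% higher with siRb1. The share of the 12 that fell with siCcnf+siNipp1, 16.7%, was thus no higher than that of the array. PSMB9, an interferon-inducible catalytic subunit of the immunoproteasome, read 6.87, 8.09 and 7.81 with siOct4, 5.24, 6.32 and 6.03 with siCcnf+siNipp1, 5.86, 5.54 and 6.06 with siRb1, and 5.09, 4.97 and 5.06 with control siRNA. This probe, the first of 2, was detected on all siOct4 arrays and on 0 arrays of each other group. Its siOct4 mean was at least 2.1-fold above control, at least 1.92-fold above siCcnf+siNipp1 and at least 1.97-fold above siRb1. The second PSMB9 probe differed: it was detected on 0 siOct4 arrays and 1 siCcnf+siNipp1 array and did not pass the filter. Its group means were 6.15 with siOct4, 6.17 with siCcnf+siNipp1, 6.05 with siRb1 and 5.81 with control siRNA. The 4 probes of PSMB8, the partner subunit of PSMB9, were detected on 0 arrays.

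PSMB10, the other inducible catalytic subunit, read 12.92, 13.18 and 12.68 with siOct4, 12.45, 12.62 and 12.20 with siCcnf+siNipp1, 12.49, 12.49 and 12.33 with siRb1, and 12.55, 12.62 and 12.37 with control siRNA. The siOct4 arrays were the highest, above every array of the other groups. Against control the log2 change was 0.41 ± 0.15 (SE; adjusted p = 0.0552), which did not pass. With a replicate block its adjusted p was 0.00584, without siOct4 replicate 3 it was 0.027, and without siCcnf+siNipp1 replicate 3 it was 0.0481. This change passed in 9 of the 22 alternative fits. PSMB10 was higher with siOct4 than with siCcnf+siNipp1 by 0.50 ± 0.15 (SE; adjusted p = 0.0236), and this did not hold when siOct4 replicate 2 or siCcnf+siNipp1 replicate 3 was dropped (adjusted p = 0.0918 and 0.0963). Nor did it hold with only the 2 groups compared (adjusted p = 0.0746).

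PSME1 and PSME2 encode the alpha and beta subunits of PA28, the proteasome activator, and both rose in all 3 knockdowns. PSME1 read 13.31, 13.33 and 13.61 with siOct4, 12.66, 13.00 and 13.06 with siCcnf+siNipp1, 12.71, 12.99 and 13.09 with siRb1, and 12.14, 12.06 and 12.20 with control siRNA. PSME2 read 12.66, 12.97 and 13.13 with siOct4, 12.28, 12.71 and 12.66 with siCcnf+siNipp1, 12.29, 12.62 and 12.74 with siRb1, and 11.68, 11.73 and 11.71 with control siRNA. Every knockdown array lay above every control array for both genes, and the siCcnf+siNipp1 and siRb1 arrays overlapped. PSME1 changed by 1.28 ± 0.15 (SE; adjusted p = 0.000102) with siOct4, 0.78 ± 0.15 (SE; adjusted p = 0.00187) with siCcnf+siNipp1 and 0.80 ± 0.15 (SE; adjusted p = 0.0121) with siRb1. PSME2 changed by 1.21 ± 0.16 (SE; adjusted p = 0.000265) with siOct4, 0.85 ± 0.16 (SE; adjusted p = 0.00217) with siCcnf+siNipp1 and 0.84 ± 0.16 (SE; adjusted p = 0.0147) with siRb1. PSME2 was higher with siOct4 than with siCcnf+siNipp1 by 0.37 and than with siRb1 by 0.37, differences that passed with the replicate block (adjusted p = 0.0199 and 0.0203) and not without it (0.106 and 0.108). Both also passed without siOct4 replicate 1 (adjusted p = 0.0441 and 0.0426). The siRb1 call of PSME1 was lost without siRb1 replicate 3 (adjusted p = 0.0577). That of PSME2 was lost without siRb1 replicate 2, siRb1 replicate 3 or control replicate 3 (adjusted p = 0.0574, 0.0713 and 0.065).

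The transporter genes followed. TAP1 read 10.93, 11.66 and 11.21 with siOct4, 10.78, 11.38 and 11.08 with siCcnf+siNipp1, 10.24, 10.14 and 10.13 with siRb1, and 9.16, 8.71 and 8.62 with control siRNA. The siOct4 and siCcnf+siNipp1 arrays overlapped each other, the siRb1 arrays lay below both, and the control arrays lowest. Its log2 change was 2.44 ± 0.21 (SE; adjusted p = 1.66e-05) with siOct4, 2.25 ± 0.21 (SE; adjusted p = 2.71e-05) with siCcnf+siNipp1 and 1.34 ± 0.21 (SE; adjusted p = 0.00521) with siRb1, which as folds were 5.41, 4.76 and 2.53. Its rises with siOct4 and siCcnf+siNipp1 exceeded that with siRb1 (1.10 ± 0.21 SE, adjusted p = 0.00215 and 0.91 ± 0.21 SE, adjusted p = 0.00564).

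TAP2, the partner chain of the transporter, read at its first probe 8.40, 8.88 and 8.58 with siOct4, 7.16, 7.95 and 7.94 with siCcnf+siNipp1, 7.14, 7.83 and 7.25 with siRb1, and 6.81, 6.38 and 6.63 with control siRNA. The siOct4 arrays stood apart above all others. The log2 change was 2.01 ± 0.24 (SE; adjusted p = 0.00013) with siOct4, 1.08 ± 0.24 (SE; adjusted p = 0.00486) with siCcnf+siNipp1 and 0.80 ± 0.24 (SE; adjusted p = 0.0949) with siRb1, and siOct4 exceeded siCcnf+siNipp1 by 0.93 ± 0.24 (SE; adjusted p = 0.0113). The siRb1 change passed without siCcnf+siNipp1 replicate 1 (adjusted p = 0.0454). The second TAP2 probe, detected on all siOct4 arrays and on 1 array of each other group, read 7.25, 7.62 and 7.10 with siOct4, 5.76, 6.78 and 6.46 with siCcnf+siNipp1, 6.03, 7.34 and 6.40 with siRb1, and 5.51, 6.62 and 5.83 with control siRNA. Its siOct4 and siRb1 values overlapped.

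ERAP2, an aminopeptidase that trims peptides in the endoplasmic reticulum, had 2 probes that disagreed. The second read 10.77, 10.92 and 11.02 with siOct4, 10.80, 11.38 and 11.00 with siCcnf+siNipp1, 10.03, 10.37 and 10.12 with siRb1, and 8.86, 8.86 and 8.67 with control siRNA. The control arrays were lowest, siRb1 next, and siOct4 and siCcnf+siNipp1 overlapped at the top. It rose by 2.11 ± 0.16 (SE; adjusted p = 8.59e-06) with siOct4, 2.26 ± 0.16 (SE; adjusted p = 5.34e-06) with siCcnf+siNipp1 and 1.38 ± 0.16 (SE; adjusted p = 0.00111) with siRb1. The first ERAP2 probe ran from 12.93 to 14.55 with the groups overlapping, and its log2 change was -0.36 ± 0.29 (SE; adjusted p = 0.381), 0.23 ± 0.29 (SE; adjusted p = 0.57) and 0.15 ± 0.29 (SE; adjusted p = 0.844) in the same order. ERAP1, the related aminopeptidase, ran from 6.47 to 7.36 and had 0 calls in the 6 comparisons. With a replicate block its difference between siOct4 and siRb1 (-0.39) had an adjusted p of 0.0455, and without siOct4 replicate 3 it was 0.0128.

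TAPBP encodes tapasin, which joins the heavy chain to TAP and edits its peptides. The first probe read 11.00, 11.06 and 10.85 with siOct4, 10.40, 10.95 and 10.42 with siCcnf+siNipp1, 9.52, 10.08 and 9.47 with siRb1, and 9.11, 8.96 and 8.37 with control siRNA. All siRb1 arrays lay above all control arrays and below all siOct4 and siCcnf+siNipp1 arrays. This probe rose by 2.16 ± 0.23 (SE; adjusted p = 5.73e-05) with siOct4 and 1.78 ± 0.23 (SE; adjusted p = 0.000168) with siCcnf+siNipp1. With siRb1 it was 0.88 ± 0.23 (SE; adjusted p = 0.0512), just outside the threshold. The replicate block gave adjusted p = 0.0126 there, and leaving out siCcnf+siNipp1 replicate 2 gave 0.043. The authors' normalized table gave 0.0263 and array weights gave 0.0244. The second TAPBP probe, near background, read 6.53, 7.31 and 6.41 with siOct4, 6.92, 7.40 and 6.37 with siCcnf+siNipp1, 5.35, 5.86 and 5.45 with siRb1, and 5.41, 5.93 and 5.16 with control siRNA. It was detected on 2 siOct4 and 2 siCcnf+siNipp1 arrays and on 0 siRb1 and control arrays, and its mean was at least 1.17-fold above control with siOct4 and at least 1.3-fold above control with siCcnf+siNipp1.

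The 2 lectin chaperones went a different way. CALR, calreticulin, read 11.06, 11.27 and 11.30 with siOct4, 11.92, 11.81 and 12.10 with siCcnf+siNipp1, 11.47, 11.74 and 11.65 with siRb1, and 11.30, 11.42 and 11.31 with control siRNA. The siCcnf+siNipp1 arrays were above all others and siOct4 was at or below control. CALR rose by 0.60 ± 0.12 (SE; adjusted p = 0.00301) with siCcnf+siNipp1, its change with siOct4 was -0.13 ± 0.12 (SE; adjusted p = 0.45) and that with siRb1 was 0.28 ± 0.12 (SE; adjusted p = 0.258). The difference between siOct4 and siCcnf+siNipp1 was -0.73 ± 0.12 (SE; adjusted p = 0.000907). That between siCcnf+siNipp1 and siRb1 (0.32 ± 0.12 SE, adjusted p = 0.0644) passed with the replicate block (adjusted p = 0.0317).

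CANX, calnexin, fell with siCcnf+siNipp1 at both of its probes. The first read 10.14, 10.06 and 10.16 with siOct4, 9.41, 9.30 and 9.23 with siCcnf+siNipp1, 10.13, 10.20 and 10.26 with siRb1, and 10.03, 10.26 and 10.00 with control siRNA. The second read 10.24, 10.11 and 10.12 with siOct4, 9.27, 9.03 and 9.23 with siCcnf+siNipp1, 9.92, 10.07 and 10.03 with siRb1, and 9.98, 10.11 and 10.04 with control siRNA. The 3 siCcnf+siNipp1 arrays lay below every other array at both probes. The log2 changes with siCcnf+siNipp1 were -0.79 ± 0.11 (SE; adjusted p = 0.000309) and -0.87 ± 0.11 (SE; adjusted p = 0.000164), and the differences from siRb1 were -0.88 ± 0.11 (SE; adjusted p = 0.000171) and -0.83 ± 0.11 (SE; adjusted p = 0.000225). With siOct4 the 95% intervals of the change from control were -0.22 to 0.26 and -0.12 to 0.35, and siOct4 exceeded siCcnf+siNipp1 by 0.81 ± 0.11 (SE; adjusted p = 0.000235) and 0.98 ± 0.11 (SE; adjusted p = 6.28e-05). PDIA3, the gene of ERp57, was undetected on all 12 arrays by its only probe.

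**Figure D4:**
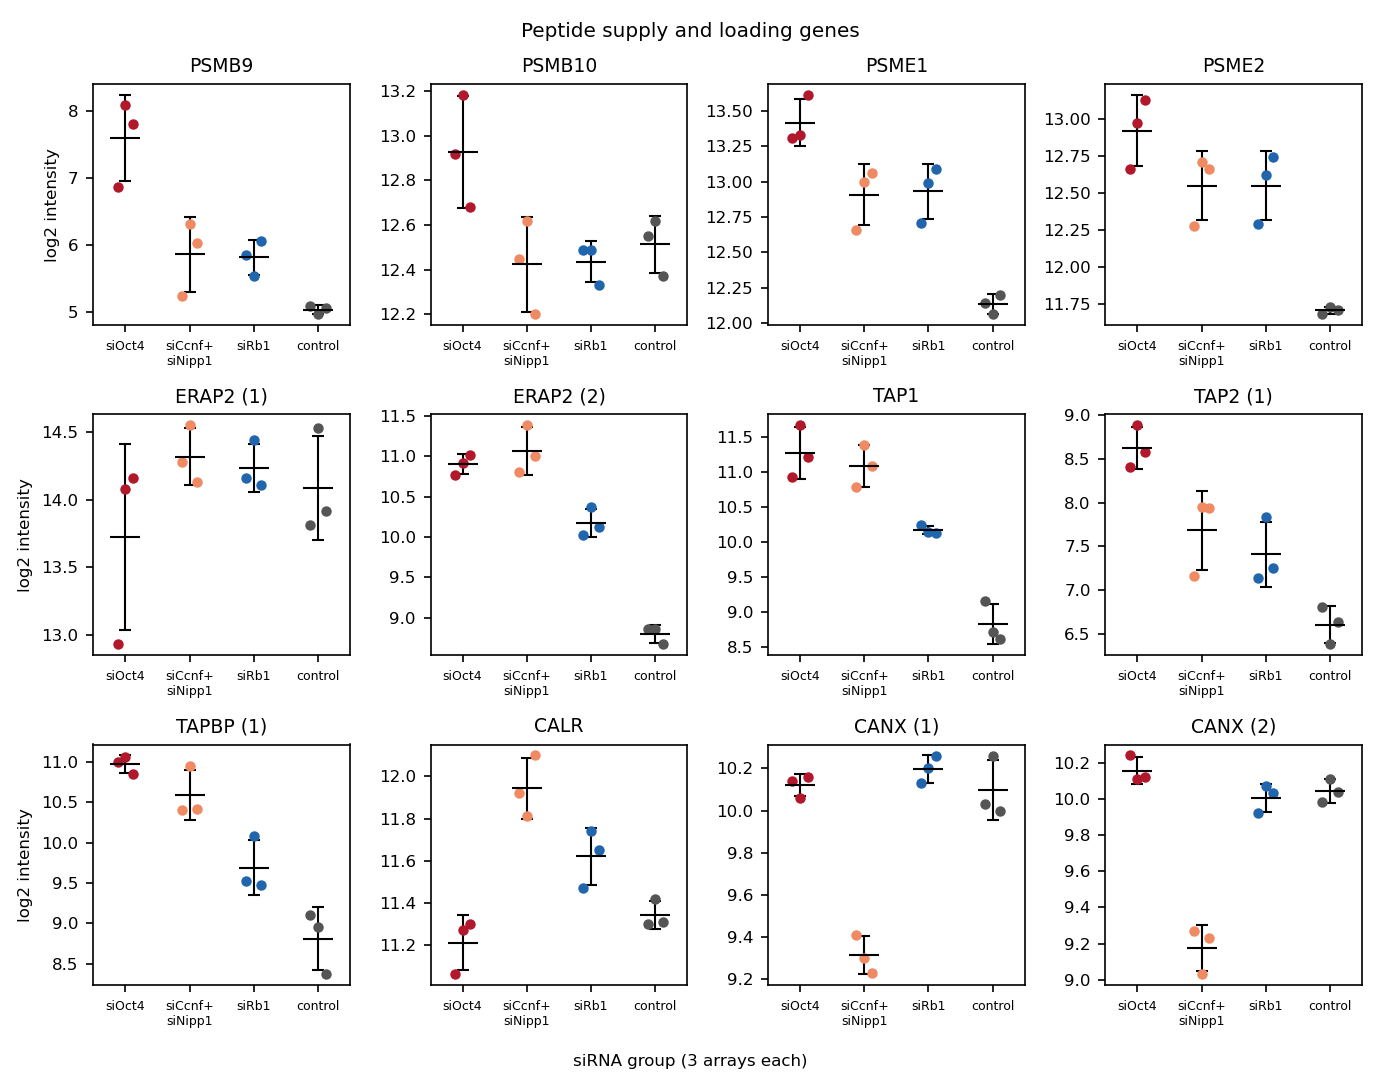
Log2 intensity on each array (points) with group mean and SD (bars) for 12 peptide supply and loading probes; the vertical axes differ and do not start at 0. TAP1 and the second ERAP2 probe step down through siOct4 and siCcnf+siNipp1, siRb1 and control, PSMB9 is high with siOct4, and CANX is low with siCcnf+siNipp1 (9.03 to 9.41, against 9.92 to 10.26 elsewhere).

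Class II molecules were split. HLA-DMA and HLA-DMB, the chains of the HLA-DM peptide editor, rose with siOct4 and siCcnf+siNipp1, while HLA-DRA, the alpha chain of the presenting molecule HLA-DR, had 0 calls. HLA-DMA read 10.49, 11.28 and 10.99 with siOct4, 9.51, 10.35 and 10.00 with siCcnf+siNipp1, 9.28, 9.64 and 9.10 with siRb1, and 8.71, 9.08 and 8.76 with control siRNA. The siOct4 arrays were above all others and the siCcnf+siNipp1 arrays above control. HLA-DMA changed by 2.07 ± 0.24 (SE; adjusted p = 0.000122) with siOct4, 1.10 ± 0.24 (SE; adjusted p = 0.00451) with siCcnf+siNipp1 and 0.49 ± 0.24 (SE; adjusted p = 0.322) with siRb1. siOct4 exceeded siCcnf+siNipp1 by 0.96 ± 0.24 (SE; adjusted p = 0.0102). The difference between siCcnf+siNipp1 and siRb1 (0.61 ± 0.24 SE, adjusted p = 0.0735) passed with a replicate block (adjusted p = 0.00721), without siOct4 replicate 1 (0.0498) and without siCcnf+siNipp1 replicate 1 (0.0213).

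HLA-DMB read 8.05, 8.76 and 8.82 with siOct4, 7.74, 8.89 and 8.62 with siCcnf+siNipp1, 7.57, 8.05 and 8.07 with siRb1, and 6.54, 7.46 and 7.75 with control siRNA. Replicate 1 was the lowest in each group, and control replicate 3 overlapped the siCcnf+siNipp1 and siRb1 values. Its log2 change was 1.30 ± 0.35 (SE; adjusted p = 0.0146) with siOct4, 1.17 ± 0.35 (SE; adjusted p = 0.0223) with siCcnf+siNipp1 and 0.65 ± 0.35 (SE; adjusted p = 0.369) with siRb1, where the replicate block gave adjusted p = 0.0289. The block also brought the differences of siOct4 and siCcnf+siNipp1 from siRb1 past the threshold (adjusted p = 0.00699 and 0.0187). The siOct4 call was lost without siOct4 replicate 2, siOct4 replicate 3 or control replicate 1 (adjusted p = 0.0542, 0.0548 and 0.0569). The siCcnf+siNipp1 call was lost without siCcnf+siNipp1 replicate 2, siCcnf+siNipp1 replicate 3 or control replicate 1 (adjusted p = 0.0927, 0.0733 and 0.0885).

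HLA-DRA had 2 probes, and the second was undetected on all 12 arrays, at 5.15 to 6.42. The kept probe lay between 7.99 and 8.38 on all 12 arrays. The 95% interval of its log2 change was -0.17 to 0.33 with siOct4, -0.1 to 0.4 with siCcnf+siNipp1 and -0.28 to 0.22 with siRb1. HLA-DPA1, HLA-DPB1 and the 3 probes of CD74, the invariant chain, were undetected on all arrays. The transactivators of the 2 classes, NLRC5 for class I and CIITA for class II, were also undetected on all 12 arrays. NLRC5 values were 5.93 to 5.99 with siOct4, 6.32 to 6.58 with siCcnf+siNipp1, 5.18 to 5.52 with siRb1 and 5.06 to 5.52 with control siRNA. With every group at background, no difference is given between them.

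Since class II genes are typical of leukocytes, their markers were read beside these changes. Of 17 leukocyte and antigen-presenting cell genes with a probe, 2 were detected on at least 2 arrays of siOct4, 2 in siCcnf+siNipp1, 2 in siRb1 and 1 in control. CD68 was detected in every group. CSF1R, a macrophage growth factor receptor, was detected on 2 siOct4, 2 siCcnf+siNipp1, 0 siRb1 and 1 control arrays, and its log2 change from control was 0.05 (adjusted p = 0.959) with siOct4 and 0.77 (adjusted p = 0.302) with siCcnf+siNipp1. AIF1 was detected on 2 siRb1 arrays and 1 control array. PTPRC, CD14, MS4A1 and CD3E were undetected in every group. The summed log2 level of the list ranged from 102 to 105.7 with siOct4, 102.1 to 103.5 with siCcnf+siNipp1, 101.1 to 102.7 with siRb1 and 101 to 102.7 with control. CD68, a lysosomal glycoprotein, rose with siOct4 at 2 of 3 probes (log2 changes of 1.13 and 1.29, adjusted p = 0.00159 and 0.0037). Of 10 fibroblast genes, 2 were detected with siOct4, 1 with siCcnf+siNipp1 and 0 with siRb1 or control. Their summed level ranged from 54.7 to 56.5 with siOct4, 55.5 to 56.5 with siCcnf+siNipp1, 53.4 to 54.1 with siRb1 and 53.2 to 54.1 with control. PDGFRA, a growth factor receptor of mesenchymal cells, was detected on 2 siOct4 arrays, 1 siCcnf+siNipp1 array and 0 of the others, and COL1A1, a collagen chain, rose by 0.77 with siCcnf+siNipp1 (adjusted p = 0.028). Of 7 endothelial genes, VWF and CDH5 were detected in every group. VWF fell by 1.01 with siOct4 (adjusted p = 0.000704) and by 1.31 with siCcnf+siNipp1 (adjusted p = 0.000142), and CDH5 fell by 0.63 with siCcnf+siNipp1 (adjusted p = 0.0228). The endothelial sum was 44.6 to 45 with siOct4, 43.9 to 44.7 with siCcnf+siNipp1, 44.5 to 44.8 with siRb1 and 45.7 to 47.6 with control. Of 15 ovarian carcinoma genes, 10, 9 and 10 were detected with siOct4, siCcnf+siNipp1 and siRb1 and 12 with control siRNA. PAX8, EPCAM and KRT19 were among these in every group, and WT1 and ESR1 in 0 groups. The summed level of that list ran from 137.2 to 138.9, 131.5 to 135 and 136.3 to 138.4 in the knockdowns, in the same order, and from 141.2 to 144.5 in control arrays. Their part in the presentation results was not tested.

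All 4 butyrophilin probes rose with siOct4 and with siCcnf+siNipp1, and 0 passed with siRb1. Both BTN3A2 probes among them were detected only in the siOct4 and siCcnf+siNipp1 groups, where they read high. This limits what their calls and the count show. Of all tested probes, 15.7%, 17.4% and 2.46% were called higher in these comparisons, so 0 of 4 with siRb1 lay near the array-wide share. BTN3A1, the butyrophilin whose intracellular domain binds phosphoantigens, read 7.09, 7.33 and 7.35 with siOct4, 7.00, 8.13 and 7.71 with siCcnf+siNipp1, 6.69, 6.24 and 6.82 with siRb1, and 5.44, 6.12 and 5.67 with control siRNA. It was detected on all siOct4 and siCcnf+siNipp1 arrays, on 2 siRb1 arrays and on 0 control arrays. It was at least 1.66-fold higher with siOct4 (adjusted p = 0.00133) and at least 2.13-fold higher with siCcnf+siNipp1 (adjusted p = 0.000344) than with control. With siRb1 it was at least 1.05-fold higher than with control, which did not pass (adjusted p = 0.109) and did without siCcnf+siNipp1 replicate 1 (adjusted p = 0.0459).

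BTN3A2, a close relative, read 8.03, 8.09 and 8.69 with siOct4, 7.36, 8.58 and 8.65 with siCcnf+siNipp1, 6.42, 6.36 and 6.38 with siRb1, and 5.28, 5.13 and 5.85 with control siRNA at its first probe. It was detected on the 6 siOct4 and siCcnf+siNipp1 arrays and on 0 siRb1 or control arrays, although the siRb1 signals lay above the control signals. With both groups at background, no difference is given between them. The bound was at least 3.36-fold with siOct4 (adjusted p = 8.00e-05) and at least 3.2-fold with siCcnf+siNipp1 (adjusted p = 8.68e-05) over control. Against siRb1 it was at least 3.16-fold with siOct4 (adjusted p = 0.00102) and at least 3-fold with siCcnf+siNipp1 (adjusted p = 0.00117).

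The second BTN3A2 probe read 6.69, 7.21 and 7.41 with siOct4, 6.98, 7.98 and 7.29 with siCcnf+siNipp1, 5.91, 6.02 and 5.94 with siRb1, and 5.92, 5.81 and 6.35 with control siRNA. It was detected on the same groups as the first, and siRb1 and control overlapped. It was at least 1.5-fold higher with siOct4 (adjusted p = 0.00642) and at least 1.86-fold higher with siCcnf+siNipp1 (adjusted p = 0.00138) than with control. BTN3A3, the third gene of the family, was detected on 1 siCcnf+siNipp1 array and did not pass the filter.

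BTN2A1, the partner of BTN3A1 that gamma delta receptors contact, read 10.44, 10.71 and 10.57 with siOct4, 10.56, 10.61 and 10.60 with siCcnf+siNipp1, 10.20, 10.13 and 10.14 with siRb1, and 10.23, 9.88 and 10.10 with control siRNA. It moved less, with log2 changes of 0.50 ± 0.12 (SE; adjusted p = 0.00704) with siOct4, 0.52 ± 0.12 (SE; adjusted p = 0.0054) with siCcnf+siNipp1 and 0.09 ± 0.12 (SE; adjusted p = 0.774) with siRb1. All siOct4 and siCcnf+siNipp1 arrays lay above all siRb1 and control arrays. The difference between siOct4 and siRb1 (0.42 ± 0.12 SE, adjusted p = 0.0191) was lost without siOct4 replicate 2, siRb1 replicate 2 or siRb1 replicate 3 (adjusted p = 0.0724, 0.0543 and 0.0561).

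The NKG2D ligands took another order: siCcnf+siNipp1 was the lowest group for both. MICB read 10.28, 10.59 and 10.36 with siOct4, 9.10, 9.40 and 9.17 with siCcnf+siNipp1, 10.04, 10.25 and 10.15 with siRb1, and 9.37, 9.51 and 9.34 with control siRNA. The siOct4 and siRb1 arrays lay above all others, and siCcnf+siNipp1 overlapped control. MICB rose by 1.00 ± 0.13 (SE; adjusted p = 0.000169) with siOct4 and 0.74 ± 0.13 (SE; adjusted p = 0.00873) with siRb1, and changed by -0.18 ± 0.13 (SE; adjusted p = 0.278) with siCcnf+siNipp1. siOct4 exceeded siCcnf+siNipp1 by 1.19 ± 0.13 (SE; adjusted p = 5.09e-05), and siCcnf+siNipp1 was below siRb1 by -0.93 ± 0.13 (SE; adjusted p = 0.000296). The smaller difference between siOct4 and siRb1 (0.26 ± 0.13 SE, adjusted p = 0.134) passed with the replicate block (adjusted p = 0.0264).

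ULBP2 read 7.51, 7.25 and 7.81 with siOct4, 6.29, 6.77 and 7.08 with siCcnf+siNipp1, 7.48, 7.57 and 8.01 with siRb1, and 7.37, 7.15 and 8.08 with control siRNA. Every siCcnf+siNipp1 array was below every array of the other groups, which overlapped each other. Its log2 change was -0.82 ± 0.26 (SE; adjusted p = 0.0296) with siCcnf+siNipp1, -0.01 ± 0.26 (SE; adjusted p = 0.978) with siOct4 and 0.15 ± 0.26 (SE; adjusted p = 0.829) with siRb1. The siCcnf+siNipp1 call was lost without siCcnf+siNipp1 replicate 1, siCcnf+siNipp1 replicate 2 or control replicate 3 (adjusted p = 0.106, 0.0624 and 0.121). It was also lost without the detection filter and with only the 2 groups compared (adjusted p = 0.0511 and 0.0527). ULBP2 was higher with siOct4 than with siCcnf+siNipp1 by 0.81 ± 0.26 (SE; adjusted p = 0.0335), which was lost without siOct4 replicate 1, siOct4 replicate 3, siCcnf+siNipp1 replicate 1 or siCcnf+siNipp1 replicate 2 (adjusted p = 0.0668, 0.112, 0.122 and 0.0647). That difference was also lost without the detection filter and with array weights (adjusted p = 0.0578 and 0.0824). The single MICA probe was undetected on all 12 arrays.

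**Figure D5:**
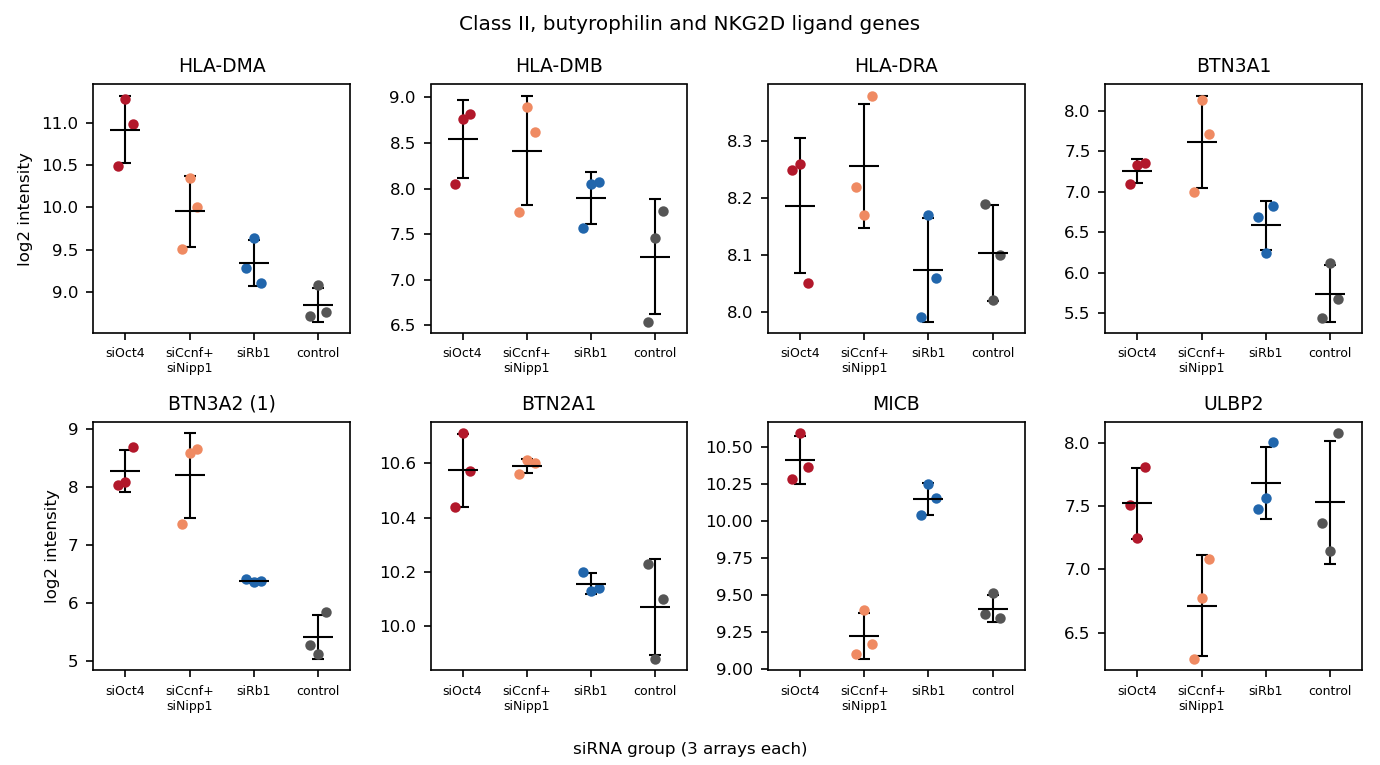
Log2 intensity on each array (points) with group mean and SD (bars) for 8 class II, butyrophilin and NKG2D ligand probes; the vertical axes differ and do not start at 0. HLA-DMA and both BTN3A genes are high with siOct4 and siCcnf+siNipp1, HLA-DRA lies within 7.99 to 8.38 throughout, and MICB is high with siOct4 (10.28 to 10.59) and siRb1 (10.04 to 10.25).

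Other genes of the route were read from lists, each beside the shares of all tested probes given above: 15.7% higher and 16.4% lower with siOct4, 17.4% and 18.6% with siCcnf+siNipp1, and 2.46% and 1.53% with siRb1. Of 21 probes for constitutive and other proteasome subunits, 0 rose and 7 fell with siOct4, 2 rose and 0 fell with siCcnf+siNipp1, and 0 passed with siRb1. The share that fell with siOct4 was 33.3%, and the share that rose with siCcnf+siNipp1, 9.52%, was below that of all probes. PSMB6, the constitutive counterpart of PSMB9, fell by 0.52 on the log2 scale with siOct4 (adjusted p = 0.0055). PSME3, which encodes another proteasome activator, fell at both probes (log2 changes of -0.53 and -0.52, adjusted p = 0.0124 and 0.0162). Of 12 probes for other trimming, loading and chaperone genes, 1 rose and 1 fell with siOct4, 4 rose and 1 fell with siCcnf+siNipp1, and 1 rose with siRb1. As shares, 8.33% rose and 8.33% fell with siOct4, both under the array-wide shares, and 33.3% rose with siCcnf+siNipp1. TAPBPL, the tapasin-related peptide editor, rose by 0.68 with siOct4 (adjusted p = 0.0111), and HSP90B1, an endoplasmic reticulum chaperone, fell by 0.35 with siOct4 (adjusted p = 0.0298) and rose by 0.55 with siRb1 (adjusted p = 0.0175).

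Of 7 probes for other MHC and MHC-like chains, 4 rose with siOct4 (57.1%), 4 with siCcnf+siNipp1 (57.1%) and 1 with siRb1 (14.3%). FCGRT, the heavy chain of the neonatal Fc receptor that also pairs with B2M, rose by 1.43 with siOct4 (adjusted p = 2.08e-05), 0.80 with siCcnf+siNipp1 (adjusted p = 0.000647) and 1.06 with siRb1 (adjusted p = 0.00117). Of 20 probes for class II peptide supply, 7 rose with siOct4 (35%), 6 rose (30%) and 2 fell (10%) with siCcnf+siNipp1, and 2 rose (10%) and 1 fell (5%) with siRb1. LGMN, the lysosomal protease legumain, fell with siCcnf+siNipp1 at both probes (log2 changes of -1.04 and -0.98, adjusted p = 7.18e-05 and 0.000722).

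Among 25 probes for MHC transcription factors and interferon signalling, 6 rose (24%) and 3 fell (12%) with siOct4, 6 rose (24%) and 1 fell (4%) with siCcnf+siNipp1, and 0 passed with siRb1. The shares that rose lay near those of all probes. IRF9, a subunit of the interferon-activated factor ISGF3, rose by 1.67 with siOct4 (adjusted p = 9.62e-05) and 0.90 with siCcnf+siNipp1 (adjusted p = 0.00348). NFKB1, an NF-kappaB subunit gene, rose by 0.85 with siOct4 (adjusted p = 0.00221). Of 29 probes for interferon-stimulated genes, 21 rose with siOct4 (72.4%), 15 rose (51.7%) and 2 fell (6.9%) with siCcnf+siNipp1, and 4 rose with siRb1 (13.8%), with median log2 changes of 1.24, 0.74 and 0.39.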

How the data were processed

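Total RNA of 12 transfected OVCAR-3 samples was labelled with biotin and read on Illumina HT-12 arrays. Per the file headers, the authors deposited 47322 probes per array, each with a signal intensity and its detection p-value. The submitters' processing notes name GenomeStudio and no version. Their values lie on a linear scale with the background still in. The authors' normalized intensity table (47303 probes) kept the rank order of the signals, and its method is not named. Array medians were 180.4 to 212, 34.2 to 36.7% of probes were detected per array, and the number of arrays limits the precision. Correlations between arrays were 0.979 to 0.988 within and 0.94 to 0.985 between groups.

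Signals were corrected from the detection p-values, given an offset of 16, quantile normalized and put on the log2 scale by neqc in limma 3.58.1 (R 4.3.3). The platform table gave exactly 1 gene to 30102 probes, several to 8 and none to 17212. The 14441 probes with 1 gene that were detected (p-value under 0.01) on 3 or more arrays entered 1 limma fit (lmFit, then eBayes, with 8 residual degrees of freedom and 3.89 from the prior) with a mean per group, two-sided tests and Benjamini-Hochberg adjustment within each of the 6 comparisons. Different probes of a gene were kept apart. For a probe that no array of the lower group detected, the fold is a bound. It sets the higher group's mean against a floor, averaged over the lower arrays: the dimmest detected signal of that array, or the probe's own value if that was brighter. An adjusted p beside a bound belongs to the fitted change, which uses the undetected values, and not to the bound. The fit was tested on simulated data.

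Replicate numbers pair the samples: the deviations of all 18 same-numbered pairs correlated (r = 0.102 to 0.426; other numbers -0.285 to 0.0438), and 12 of 12 arrays correlated best with their own number. The pairing is read from the data, since the labels give only the number. The fit with the number as a block was an alternative.

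The members, gene lists and motifs were chosen with earlier results of these data known. Every member is named; those the F test called have all 12 values, and from each other list at most 3 called genes per comparison, those with the largest changes, could be named. The calls of 3 probes on which the detection rule bears are not used one by one; the second TAPBP probe joined them after its values were seen. Promoter windows are RefSeq's. Array files name no genome build. Figures were drawn in Python 3.11.15 with matplotlib.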

Additional observations from a re-analysis of the deposited data

How the results depend on the processing

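Over 22 alternatives (background, normalization, filter, block, weights, prior, probe choice, fewer samples), 0 called probe changes reversed. Of the probes called, the number called under every alternative that held the probe was 22 of 25 for siOct4 against control, 23 of 26 for siCcnf+siNipp1 against control and 4 of 6 for siRb1 against control. It was 7 of 11 for siOct4 against siCcnf+siNipp1, 16 of 21 for siOct4 against siRb1 and 14 of 17 for siCcnf+siNipp1 against siRb1. The siRb1 count against control, 6 in the fit as reported, was 11 with a replicate block, 11 with array weights and 10 with only the 2 groups compared. These counts include PSMB9 and the second TAP2 and TAPBP probes, whose calls are not read one by one, and the first BTN3A2 probe between siRb1 and control, both at background there. For the other probes the block changed no call beyond those given beside the results, and it moved no other count of member probes by over 1.5 times. Over all probes the siRb1 count was 576, against 1315 with the block and 1161 with array weights. Leaving out 1 array gave 23 to 26 called member probes for siOct4 against control, 24 to 27 for siCcnf+siNipp1 against control and 4 to 10 for siRb1 against control. It gave 9 to 13 for siOct4 against siCcnf+siNipp1, 17 to 23 for siOct4 against siRb1, 15 to 20 for siCcnf+siNipp1 against siRb1, and 27 to 30 for the F test. Over all probes, the siRb1 count fell to 183 without control replicate 3, 272 without siRb1 replicate 2, 224 without siRb1 replicate 3, 373 without control replicate 2 and 364 without siRb1 replicate 1. Median scaling in place of quantile normalization moved the median of all probes for siRb1 against control to -0.11, from -0.01; relative to control, PSME1 and PSME2 then did not pass with siRb1 (adjusted p = 0.0753 and 0.061). Probes near background (the first PSMB9 probe, HLA-G, BTN3A1, BTN3A2 and the second TAPBP probe) give bounds only.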

Other observations

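Ligands of other T and NK cell receptors followed no single order. Of 15 probes, 2 rose (13.3%, where 15.7% of all probes rose) and 1 fell with siOct4, 6 rose (40%, where 17.4% of all probes rose) and 1 fell with siCcnf+siNipp1, and 2 rose with siRb1 (13.3%, where 2.46% of all probes rose). The siOct4 share was thus no higher than that of the array. PVR, a ligand of the receptors DNAM-1 and TIGIT, rose with siCcnf+siNipp1 (log2 changes of 0.86 and 0.62 at 2 probes, adjusted p = 0.0171 and 0.00913). NECTIN2, which engages the same receptor family, rose by 0.68 with siCcnf+siNipp1 (adjusted p = 0.00291). VTCN1, which encodes the inhibitory ligand B7-H4, rose by 1.91 with siRb1 (adjusted p = 0.00117) and 0.73 with siOct4 (adjusted p = 0.0288). CD47, the signal that holds off phagocytes, rose by 0.61 with siOct4 (adjusted p = 0.0195) and 0.70 with siRb1 (adjusted p = 0.0462).

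Of 7 probes for other NKG2D ligands and the proteases that can shed such ligands, 1 rose with siOct4 (14.3%), 4 with siCcnf+siNipp1 (57.1%) and 1 with siRb1 (14.3%), beside the same shares of all probes. ADAM10, a sheddase of MIC proteins, rose with siCcnf+siNipp1 at both probes (log2 changes of 1.33 and 1.09, adjusted p = 0.000586 and 0.000106). ADAM17, another sheddase, rose by 0.85 (adjusted p = 0.00146). Of the 2 probes for other butyrophilins, both were called higher with siCcnf+siNipp1 and 1 with siOct4. ERMAP, a butyrophilin-like protein of red blood cells, rose by 0.41 with siOct4 (adjusted p = 0.0206) and by 0.76 with siCcnf+siNipp1 (adjusted p = 0.000645). BTN2A2 passed the detection rule through the 3 siCcnf+siNipp1 arrays alone, with 0 arrays of each other group, so its call is no support for a difference.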
